A study of Mus musculus with 4 samples.

Results

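Aconitate decarboxylase (Acod1, also called Irg1), which makes itaconate, was examined in mouse macrophages together with 8 enzymes of the tricarboxylic acid (TCA) cycle, Cs, Idh1, Idh2, Idh3a, Ogdh, Sucla2, Fh1 and Mdh2. The 9 genes were taken by symbol from the array annotation, out of 19938 genes measured by a probe set assigned to a single gene, and each had 1 probe set. They were selected on the log2 signals of all 4 arrays, which had already been read, and Acod1 was known to have the largest IL-1α difference in M2. Their values are therefore a description, and no p-value is given for them.

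All macrophages were grown from bone marrow of the C57BL/6N strain in medium holding M-CSF at 10 ng/mL, and were harvested on day 9. M2 macrophages received 20 ng/mL IL-4 for 48 h and M1 macrophages 10 ng/mL IFN-γ for 48 h. Each phenotype was then given the inflammatory cytokine IL-1α (10 ng/mL) or vehicle for 24 h, which made 4 groups, M2 IL-1α, M2 vehicle, M1 IL-1α and M1 vehicle. Each group had 1 array, so no value has a standard deviation, and the labels give neither the number of mice nor whether cultures were separate.

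In the TCA cycle, citrate synthase joins acetyl-CoA to oxaloacetate, isocitrate dehydrogenases oxidise isocitrate to oxoglutarate, and later steps pass through succinate, fumarate and malate back to oxaloacetate. ACOD1 removes a carboxyl group from cis-aconitate, the intermediate between citrate and isocitrate, and the itaconate it makes inhibits succinate dehydrogenase and limits inflammatory output. Macrophages activated by microbial products and interferon are known for diverting citrate into itaconate, whereas IL-4-activated macrophages are known for an intact cycle that feeds respiration.

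The promoter of Acod1 is shown because Acod1 was the member with the largest differences, and that of Idh2 because Idh2 had the largest phenotype difference among the 8 cycle enzymes. Both windows are RefSeq sequence of GRCm38.p6, written from 250 bases before to 50 bases after the transcription start. Acod1 lies on the plus strand of chromosome 14 and Idh2 on the minus strand of chromosome 7. Capitals in Acod1 mark matches to the motifs searched, and capitals in Idh2 mark CpG dinucleotides.
Acod1, chr14:103046762-103047061: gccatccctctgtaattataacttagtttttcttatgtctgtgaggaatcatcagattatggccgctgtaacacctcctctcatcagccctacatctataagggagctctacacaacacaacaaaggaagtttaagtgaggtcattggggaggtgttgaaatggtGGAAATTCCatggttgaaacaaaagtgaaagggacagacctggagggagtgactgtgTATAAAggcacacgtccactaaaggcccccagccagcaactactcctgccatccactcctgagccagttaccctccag
Idh2, chr7:80115301-80115600: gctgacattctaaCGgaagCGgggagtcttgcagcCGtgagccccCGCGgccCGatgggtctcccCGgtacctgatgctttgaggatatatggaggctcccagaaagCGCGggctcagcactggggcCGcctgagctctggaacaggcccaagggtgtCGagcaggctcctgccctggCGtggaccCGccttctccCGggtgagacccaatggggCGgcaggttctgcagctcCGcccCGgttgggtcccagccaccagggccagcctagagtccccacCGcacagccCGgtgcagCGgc

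The Acod1 window held a palindromic NF-κB-type motif (GGAANTTCC) that began at position -85 from the start and a TATA motif (TATAAA, sense strand only) at position -28. Of 32851 promoter windows of the same length, 0.928% held the first motif and 8.32% the second. The motifs were chosen after the Acod1 window had been read. No other member with a window held either motif, and 8 of the 9 members had 1 or more windows (14 windows in all). Among the members, no window held the classical NF-κB motif GGGNNTTTCC (1.63% of all windows), the interferon-stimulated response element GAAANNGAAA (3.44%) or the STAT motif TTCNNNGAA (8.3%), searched on both strands. The wider-spaced STAT6-type motif TTCNNNNGAA (6.95% of all windows) occurred once, in Fh1, as TTCCCGTGAA at position -142. The Acod1 window held 2 CpG dinucleotides and 47% G and C, and the Idh2 window 20 CpG and 68.3%. All member windows but that of Acod1 held 11 to 37 CpG, and the median over all windows was 7. A match in a window is a description of its letters only.

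Acod1 read 11.35 in M2 with IL-1α, 7.45 in M2 with vehicle, 13.76 in M1 with IL-1α and 13.75 on the M1 vehicle array, as RMA log2 signals. Both M1 arrays were high and differed by 0.01, M2 with IL-1α lay between, and M2 with vehicle lay 0.17 under 7.617, which is the median over all genes and arrays. That median was taken as a floor, below which a signal is not shown to be above background. Genes said to be at the floor reached or passed it. With vehicle, M2 was lower than M1 by 79.1-fold as measured (log2 difference -6.31), and by at least 70.4-fold when the M2 signal is set at the floor. With IL-1α on both sides, M2 was 5.34-fold lower (-2.42). Among genes at the floor, Acod1 was the 12th lowest in M2 relative to M1 with vehicle and the 161st lowest with IL-1α.

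In M2, Acod1 was 14.9-fold higher with IL-1α than with vehicle (3.90), and at least 13.3-fold higher against the floor. It was the only member of the 9 past 2-fold in this comparison, and of 10284 genes 0.35% were past 2-fold in this direction. In M1 the same treatment gave a difference of 0.01. The standard deviation over all genes was 0.11 there, and none of 10012 genes was past 2-fold in either direction. M1 Acod1 signals were near the top of the array. On the M1 vehicle array 27 of 19938 genes were above Acod1, which lay 0.47 below the highest gene. A rise there could be hidden by a ceiling, which was not tested. The difference of the IL-1α responses, M2 minus M1, was 3.89, against a median of 0.06 over 10625 genes. Of these genes, 0.32% had a difference of responses of at least 2-fold in this direction, and Acod1 had the largest.

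**Figure D1:**
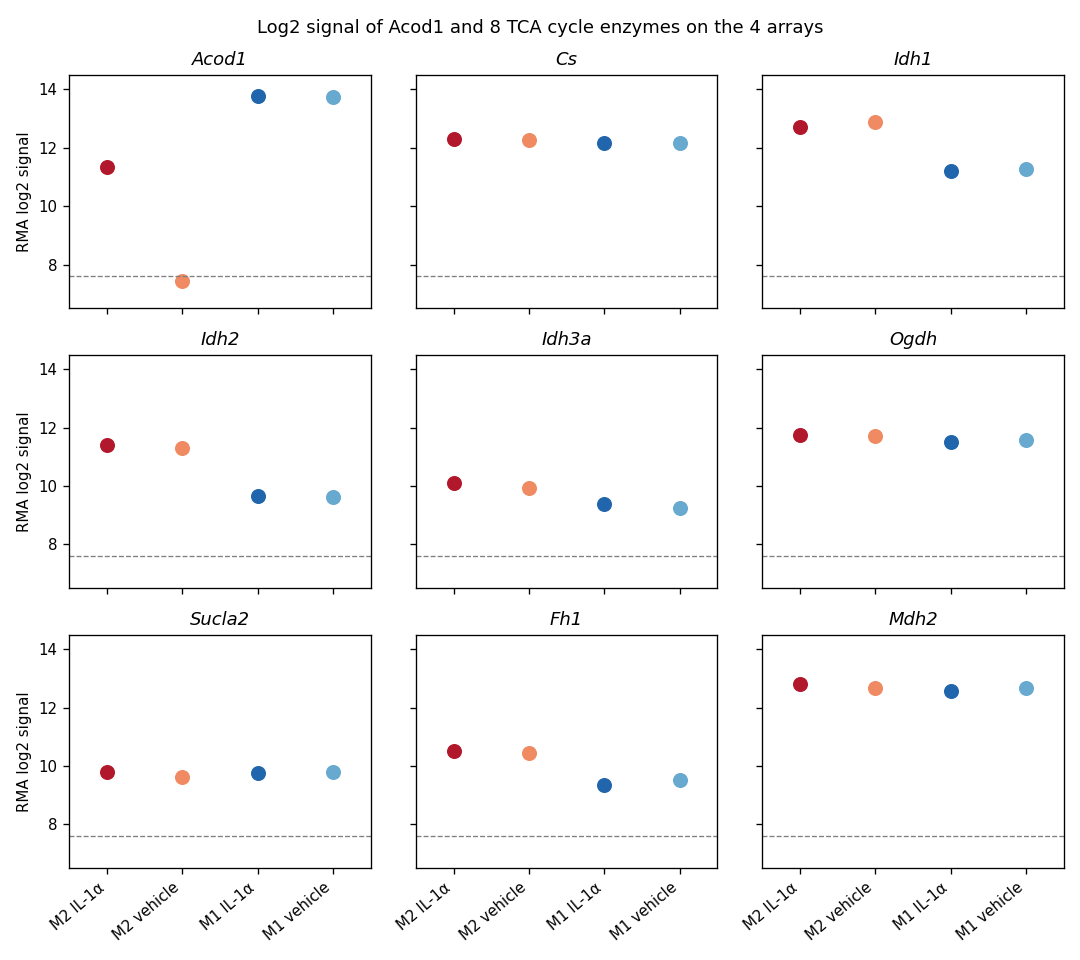
RMA log2 signal (vertical axis) of each gene on the M2 IL-1α, M2 vehicle, M1 IL-1α and M1 vehicle arrays, 1 point per array, with the floor of 7.617 as a dashed line. Acod1 spanned 6.31 log2 units across the arrays, whereas Idh1, Idh2, Idh3a and Fh1 formed a higher M2 pair and a lower M1 pair.

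The IL-1α-treated M2 cells covered 61.8% of the distance, on the log2 scale, between the Acod1 signals of M2 vehicle and M1 vehicle, and remained 5.31-fold below M1 vehicle. Of the 716 genes for which M2 was below M1 by 2-fold or more with vehicle, 22 covered at least 50% of their distance, and the median over the 716 was 8.59%. Acod1 was not the most complete of these, since 12 genes covered a larger share, led by the chemokine Cxcl2 (named after its values were seen), which went past its M1 vehicle level. The share for Acod1 rests on an M2 vehicle signal under the floor, whereas both signals behind the 5.31-fold gap were above it. The M2 vehicle array also entered the choice of the 716 genes and both parts of every share. Error in that array can therefore raise the shares, which was not tested.

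The genes whose profiles over the 4 arrays lay closest to that of Acod1 were, in order, the C-type lectin Clec4e, the cytokine Il1b, the prostaglandin synthase Ptgs2, the cytokine Il1a and the chemokine Ccl5. Closeness was the root mean square difference of log2 values centred on each gene's own mean, over 10151 other genes at the floor, and it ran from 0.32 for Clec4e to 0.91 for Ccl5. Clec4e read 9.66 in M2 with IL-1α, 6.60 in M2 with vehicle, 12.76 in M1 with IL-1α and 12.60 on the M1 vehicle array. Its order of groups was therefore that of Acod1, with an M2 difference of 3.06 and an M1 difference of 0.16. The IL-1α differences in M2 of the other 4 were 2.56 (Il1b), 2.25 (Ptgs2), 1.96 (Il1a) and 1.48 (Ccl5). A TATA motif lay at position -29 in Clec4e, -31 in Il1b and -32 in Il1a, and none of the 4 near genes with a promoter window held the palindromic NF-κB-type motif found in Acod1. In M2 with vehicle, all of these genes but Ccl5 read under the floor, so their sizes are uncertain.

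**Figure D2:**
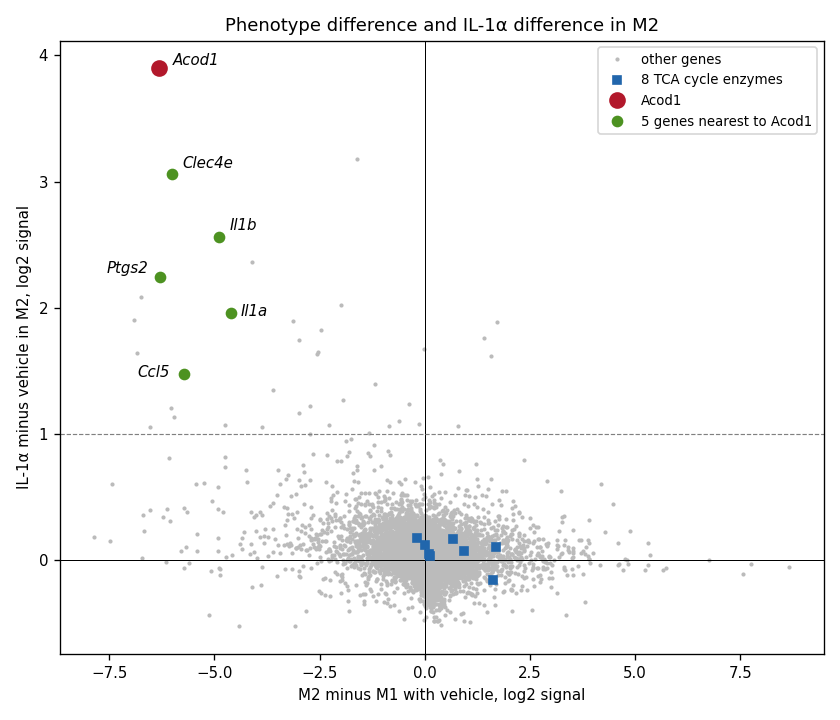
Log2 difference between M2 and M1 with vehicle (horizontal axis) against the log2 difference between IL-1α and vehicle in M2 (vertical axis), 1 point per gene at the floor on at least 1 of the 3 arrays used, with a dashed line at 2-fold. Both axes use the M2 vehicle array, so they are not independent. Acod1 sits at the upper left (-6.31, 3.90), its 5 nearest genes below it, and the 8 TCA cycle enzymes between -0.16 and 0.18 on the vertical axis.

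The known inducers of Acod1 that could be analysed were few. Irf1, an interferon-induced transcription factor known to drive Acod1, read 9.17 in M2 with IL-1α, 8.91 in M2 with vehicle, 10.81 in M1 with IL-1α and 10.84 on the M1 vehicle array. It fell in M2 relative to M1 (-1.79 ± 0.09 SE, limma adjusted p = 5.13e-09). Of its pair of probe sets, one gave -2.46 with vehicle, and the other read below the floor in M2 under both treatments, so that the size of the Irf1 difference is uncertain. The NF-κB subunit Rela also fell in M2 (-0.29 ± 0.08, limma adjusted p = 0.00589), whereas the lysosomal regulator Tfeb rose (0.42 ± 0.07, limma adjusted p = 0.000419). In M2, the IL-1α differences were 0.26 for Irf1, 0.19 for Rela and -0.03 for Tfeb, without a test. Nfkb1 was not analysed here.

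These limma p-values come from a model with phenotype and treatment as additive terms over all 4 arrays, adjusted by Benjamini-Hochberg over 10625 genes. They set the phenotype effect against the departure from additivity and measure no spread between cultures. The model called 33.2% of genes higher and 29.3% lower in M2, so a call is common.

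The 8 cycle enzymes were at or above the floor on all 4 arrays. Idh1, Idh2, Idh3a and Fh1 read higher in M2 than in M1 under both treatments, while Cs, Ogdh, Sucla2 and Mdh2 were close in both phenotypes. With vehicle, 2 of the 8 (Idh1 and Idh2) were higher in M2 by 2-fold or more and none was lower, against 7.03% of 10489 genes higher and 6.83% lower. With IL-1α, 3 of the 8 were higher, Fh1 being the third, against 8.15% of 10479 genes higher and 6.06% lower. At 1.5-fold Idh3a passed as well, making 4 of the 8 higher with vehicle, against 14.1% of genes, and 4 of the 8 with IL-1α, against 16.6%. The median difference of the 8 was 0.40 with vehicle and 0.47 with IL-1α, whereas that of all genes was 0.01 and 0.03.

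Citrate synthase (Cs), the entry step, read 12.31 in M2 with IL-1α, 12.27 in M2 with vehicle, 12.16 in M1 with IL-1α and 12.16 on the M1 vehicle array. The phenotype difference was 0.16 with IL-1α and 0.10 with vehicle, near the 0.11 that was the standard deviation of IL-1α differences over all genes in M1.

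Idh1, the cytosolic NADP-dependent isocitrate dehydrogenase, read 12.72 in M2 with IL-1α, 12.88 in M2 with vehicle, 11.22 in M1 with IL-1α and 11.26 on the M1 vehicle array. Both M2 arrays were thus above both M1 arrays, by 2.84-fold with IL-1α and 3.06-fold with vehicle. Idh2, its mitochondrial NADP-dependent counterpart, read 11.41 in M2 with IL-1α, 11.31 in M2 with vehicle, 9.65 in M1 with IL-1α and 9.61 on the M1 vehicle array. M2 was higher by 3.39-fold with IL-1α and 3.24-fold with vehicle, and limma put the effect over both treatments at 1.56 ± 0.05 SE for Idh1 and 1.73 ± 0.07 SE for Idh2. These were the largest phenotype differences among the 8 cycle enzymes under either treatment.

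Idh3a, the catalytic subunit of the mitochondrial NAD-dependent isocitrate dehydrogenase, read 10.09 in M2 with IL-1α, 9.93 in M2 with vehicle, 9.37 in M1 with IL-1α and 9.26 on the M1 vehicle array. M2 was 1.65-fold higher with IL-1α and 1.58-fold higher with vehicle. The partner subunits of the same enzyme differed in direction. Idh3g rose in M2 (0.70 ± 0.05 SE, limma adjusted p = 3.55e-07), and Idh3b fell slightly (-0.21 ± 0.05, limma adjusted p = 0.00478).

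Ogdh, the first subunit of the oxoglutarate dehydrogenase complex, read 11.74 in M2 with IL-1α, 11.71 in M2 with vehicle, 11.52 in M1 with IL-1α and 11.58 on the M1 vehicle array, a phenotype difference of 0.22 with IL-1α and 0.13 with vehicle. For the other subunits of that complex, Dlst and Dld, limma gave 0.04 ± 0.06 and -0.002 ± 0.07 (adjusted p = 0.611 and 0.984). Sucla2, the ADP-linked subunit of succinyl-CoA ligase, read 9.79 in M2 with IL-1α, 9.62 in M2 with vehicle, 9.77 in M1 with IL-1α and 9.80 on the M1 vehicle array. It was the only one of the 9 members whose M2 and M1 arrays overlapped. Its GTP-linked counterpart Suclg2 rose in M2 (0.76 ± 0.10, limma adjusted p = 3.11e-05), as did the shared subunit Suclg1 (0.24 ± 0.08, limma adjusted p = 0.0145).

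Fh1, the fumarase that hydrates fumarate to malate, read 10.52 in M2 with IL-1α, 10.44 in M2 with vehicle, 9.35 in M1 with IL-1α and 9.50 on the M1 vehicle array. M2 was higher by 2.24-fold with IL-1α and by 1.92-fold with vehicle, so that Fh1 passed 2-fold under IL-1α alone. The difference between these phenotype differences, 0.22, was not tested. Mdh2, the mitochondrial malate dehydrogenase, read 12.81 in M2 with IL-1α, 12.68 in M2 with vehicle, 12.58 in M1 with IL-1α and 12.68 on the M1 vehicle array. With vehicle its phenotypes differed by 0.01, which became -0.11 when arrays were centred by loess and -0.04 when they were quantile-normalised once more.

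Over the 4 arrays, both M2 arrays lay above both M1 arrays for 7 of the 9 members, all cycle enzymes but Sucla2, where 43.1% of 10625 genes did so. For Mdh2 this rested on the difference of 0.01 with vehicle, and under loess or further quantile normalisation the count was 6, without Mdh2. Acod1 alone lay below on both M2 arrays, where 38.3% of genes did so. From the highest to the lowest array, Cs spanned 0.16, Sucla2 0.18, Ogdh 0.22 and Mdh2 0.23, against 1.66 for Idh1 and 1.80 for Idh2.

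**Figure D3:**
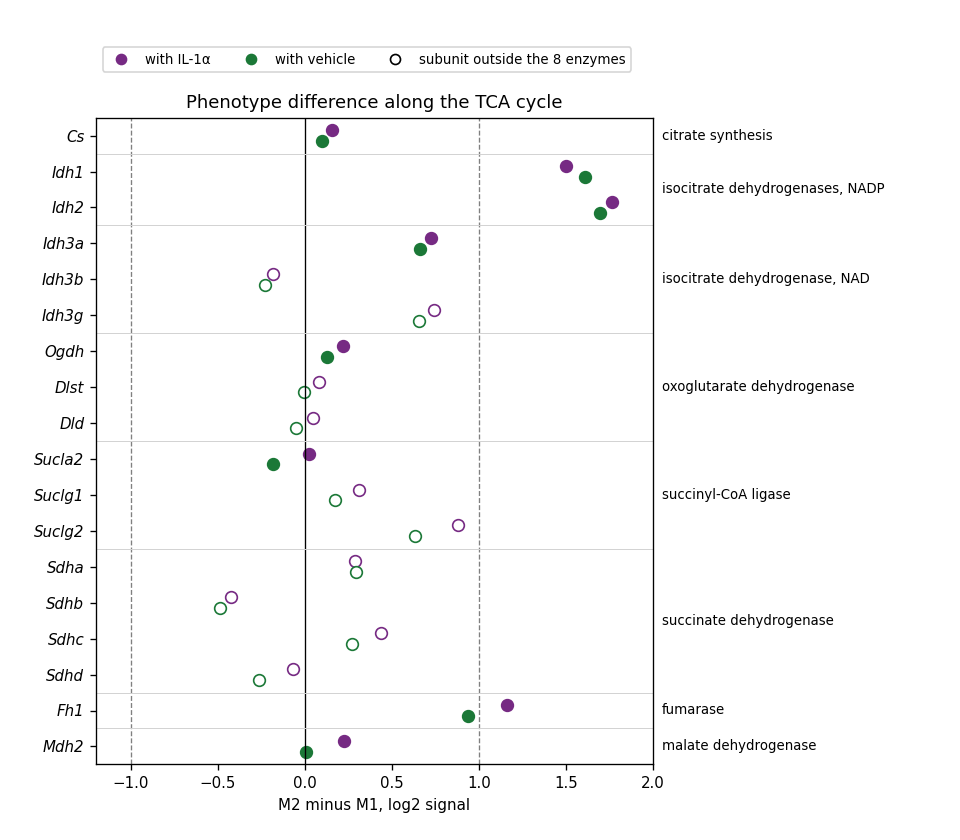
M2 minus M1 log2 difference (horizontal axis) with IL-1α and with vehicle for 18 subunits in cycle order, 1 array per group, with filled points for the 8 enzymes and open points for the others and dashed lines at 2-fold. Idh1 and Idh2 lie beyond 2-fold under both treatments, Fh1 lies on either side of it, and the subunits of succinate dehydrogenase fall on both sides of 0.

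The rest of the cycle was described by 10 further subunits. In limma, 5 rose in M2 and 3 fell, and the median difference with vehicle was 0.09, with none past 2-fold. Succinate dehydrogenase, the enzyme that itaconate inhibits, was mixed. Its catalytic subunit Sdha (0.29 ± 0.05, limma adjusted p = 0.000343) and membrane anchor Sdhc (0.35 ± 0.06, limma adjusted p = 0.000359) rose in M2. Its iron-sulfur subunit Sdhb fell (-0.46 ± 0.06, limma adjusted p = 3.38e-05), and so did the anchor Sdhd (-0.17 ± 0.07, limma adjusted p = 0.047). The call for Sdhd was lost without the floor (adjusted p = 0.0896), with the brightest probe set per gene (0.0522) and without the eBayes trend (0.117).

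IL-1α left the 8 cycle enzymes near their vehicle levels in both phenotypes. None was past 2-fold in either direction. In M2 the differences ran from -0.16 (Idh1) to 0.18 (Sucla2), with 7 of 8 above 0 and a median of 0.09. Among all genes the M2 differences had a median of 0.05 and 69.3% were above 0, so a shift of this kind was common on that array. In M1 they ran from -0.15 (Fh1) to 0.11 (Idh3a), with 6 of 8 below 0 and a median of -0.04. The M1 differences over all genes had a median of -0.002 and 49.2% were above 0, and none of 10012 genes was past 2-fold there. Idh1, lower with IL-1α by 0.16 in M2 and by 0.05 in M1, was the only enzyme of the 8 below 0 in M2. The 10 further subunits had IL-1α differences from 0.00 to 0.25 in M2, with Suclg2 the highest, and from -0.17 to 0.05 in M1. For an IL-1α effect shared by M2 and M1, limma called 0 of 10625 genes, with 646 at an unadjusted p under 0.05. The estimates, each an average of the M2 and M1 differences, were 1.95 ± 0.59 SE for Acod1. They ran from -0.10 ± 0.05 (Idh1) to 0.14 ± 0.08 (Idh3a) for the cycle enzymes. For Acod1 the average joins 3.90 in M2 and 0.01 in M1, so it does not describe a shared response. Its SE comes largely from the difference of 3.89 between these responses and is not a measure of noise alone.

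**Figure D4:**
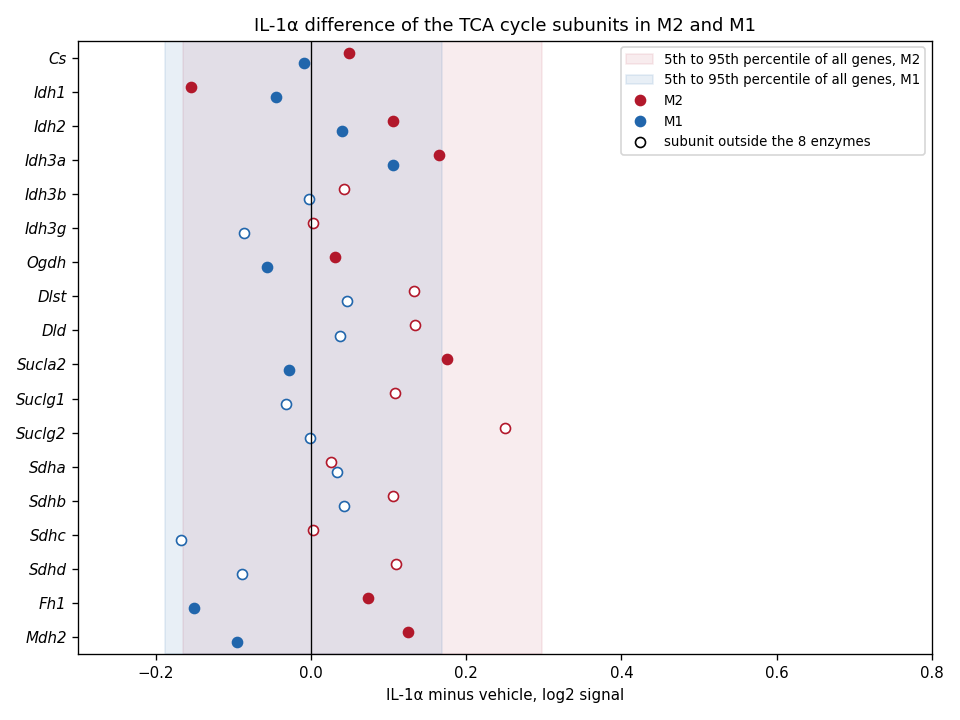
IL-1α minus vehicle log2 difference (horizontal axis) in M2 and in M1 for the same 18 subunits, without Acod1, with shading from the 5th to the 95th percentile of all genes at the floor in each phenotype. The 8 enzymes (filled) lie between -0.16 and 0.18 in M2 and between -0.15 and 0.11 in M1, inside the shading of their own phenotype.

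Genes that draw on the same intermediates outside mitochondria were measured as 5 cytosolic counterparts, of which 3 rose and 1 fell in M2. Aco1, the cytosolic aconitase, read 11.66 in M2 with IL-1α, 11.58 in M2 with vehicle, 10.39 in M1 with IL-1α and 10.35 on the M1 vehicle array (1.25 ± 0.06 SE, limma adjusted p = 7.48e-09). With vehicle its phenotype difference was 1.23, beside 1.61 for Idh1, which oxidises its product. The NADP-dependent malic enzyme Me1 fell in M2 (-1.33 ± 0.10, limma adjusted p = 2.89e-07). Both the cytosolic malate dehydrogenase Mdh1 (0.41 ± 0.06) and the citrate-cleaving enzyme Acly (0.40 ± 0.06) rose, with limma adjusted p = 0.000107 and 0.000185.

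The pyruvate dehydrogenase complex, which makes acetyl-CoA for the cycle, did not pass the test in its subunits Pdha1, Pdhb, Dlat and Pdhx, whose limma estimates ran from -0.07 ± 0.07 to 0.15 ± 0.10. Of its kinases and phosphatases, 3 passed the test. The inhibitory kinase Pdk2 (1.07 ± 0.09, limma adjusted p = 1.14e-06) and the activating phosphatases Pdp1 (0.72 ± 0.06, limma adjusted p = 1.56e-06) and Pdp2 (0.86 ± 0.10, limma adjusted p = 1.44e-05) all rose in M2, although Pdp2 was under the floor on both M1 arrays. The kinases Pdk1 (0.16 ± 0.09, limma adjusted p = 0.14) and Pdk3 (-0.17 ± 0.09, limma adjusted p = 0.144) did not pass, and Pdk4 read under the floor on all 4 arrays. Pyruvate carboxylase (Pcx), which makes oxaloacetate from pyruvate, fell (-0.43 ± 0.11, limma adjusted p = 0.00429). Of the 12 pyruvate entry genes at the floor, 4 rose and 1 fell in M2.

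The glutamine and aspartate entry genes had the largest differences of the lists around the cycle, with 4 of 6 at the floor rising in M2 and 1 falling. The glutamine transporter Slc1a5 read 11.27 in M2 with IL-1α, 11.24 in M2 with vehicle, 8.35 in M1 with IL-1α and 8.51 on the M1 vehicle array (2.83 ± 0.08 SE, limma adjusted p = 5.41e-11). Glutamine synthetase (Glul, 1.65 ± 0.07, limma adjusted p = 1.01e-09) and the alanine transaminase Gpt2 (1.47 ± 0.09, limma adjusted p = 5.39e-08) rose as well. Glutamate dehydrogenase (Glud1), which yields oxoglutarate, rose less (0.51 ± 0.06, limma adjusted p = 1.12e-05).

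**Figure D5:**
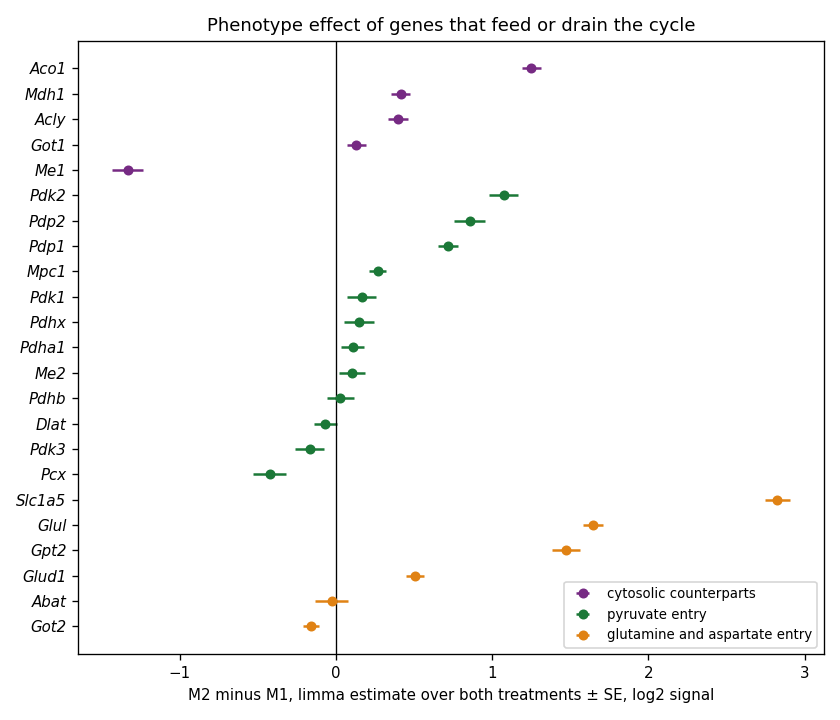
Limma estimate of M2 minus M1 over both treatments (horizontal axis, log2, ± SE) for genes at the floor among the cytosolic counterparts, the pyruvate entry genes and the glutamine and aspartate entry genes. Slc1a5 (2.83), Glul and Gpt2 lie furthest to the right, and Me1 (-1.33) furthest to the left.

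Carriers and sensors of the acids differed little. The mitochondrial citrate carrier Slc25a1 rose in M2 (0.28 ± 0.06, limma adjusted p = 0.00165), and the dicarboxylate carrier Slc25a10 fell (-0.37 ± 0.08, limma adjusted p = 0.00134). Clybl, the enzyme that clears the itaconate breakdown product citramalyl-CoA, rose (0.70 ± 0.08, limma adjusted p = 8.59e-06). The succinate receptor Sucnr1 and the oxoglutarate receptor Oxgr1 read under the floor on all 4 arrays. In all, 3 of the 6 at the floor rose in M2 and 2 fell, and none was past 2-fold.

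The arrays carried the markers of their labels. With vehicle, Nos2 and Cxcl9, of interferon-activated cells, were under the floor in M2 and at least 41.7-fold and 74.7-fold lower there than in M1, with the M2 signal set at the floor. Arg1 and Retnla, of IL-4-activated cells, were at least 29-fold and 33.1-fold higher in M2 than in M1, where both were under the floor. The 7 macrophage markers were above the floor on all 4 arrays. With vehicle, 4 of them read higher in M2 than in M1 and 3 lower, among these Fcgr1 (-3.06) and Mertk (-0.90). Proliferation markers read higher in M2 than in M1, as Idh1, Idh2, Idh3a and Fh1 did, whereas Cs, Ogdh, Sucla2 and Mdh2 were close. Of 6 measured, 5 were at the floor in M2 and 2 in M1, and their mean log2 signal was 9.75 in M2 with IL-1α, 9.63 in M2 with vehicle, 7.63 in M1 with IL-1α and 7.70 on the M1 vehicle array. Top2a counted as under the floor because its pair of probe sets was averaged. One of the pair read 10.24 and 10.00 in M2 with IL-1α and with vehicle, and 7.92 and 8.01 in M1. The other was under the floor on all 4 arrays, so these counts and means depend on the averaging. Of 7 neutrophil markers, 5 were at the floor on both M2 arrays and none on either M1 array. Their means were 7.81 and 7.94 in M2 with IL-1α and with vehicle, and 7.03 and 6.97 in M1 with IL-1α and with vehicle. In M2 with IL-1α, Ngp read 9.93 and Ltf 8.01, whereas S100a8 (7.62), Mpo (7.64) and S100a9 (7.77) lay close to the floor. The granule genes Camp and Elane were under the floor throughout. Of 6 dendritic cell markers, 1 was at the floor in M2 and 2 in M1, with means of 6.60 and 6.69 in M2 with IL-1α and with vehicle, and of 7.50 and 7.58 in M1 with IL-1α and with vehicle. Those at the floor in M1 were Clec9a (9.59 with IL-1α and 9.97 with vehicle) and Xcr1 (8.24 and 8.44). In M2, Clec9a read 5.71 and 5.62, and Xcr1 6.38 and 6.49. The one at the floor in M2 was Zbtb46 (7.89 and 7.94, against 7.43 and 7.46 in M1). Flt3, Cd209a and Itgae were under the floor throughout. No lymphocyte marker reached the floor. Of 6 stromal and endothelial markers, 4 were at the floor on all 4 arrays, with means of 7.95 and 8.003 in M2 with IL-1α and with vehicle, and of 7.80 and 7.74 in M1 with IL-1α and with vehicle. Pecam1, an adhesion molecule of endothelial and some blood cells, rose in M2 (0.60 ± 0.10, limma adjusted p = 0.000215), the other 3 at the floor (Col1a1, Col1a2 and Col3a1) did not pass the test, and Pdgfra and Cdh5 were under the floor throughout. The part of these cells or of cell division in the enzyme differences was not tested, and less RNA per cell cannot be told apart from fewer cells of a type.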

How the data were processed

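The authors deposited a log2 signal for each probe set of a single-colour mouse gene array. Per the submitters' processing notes, Affymetrix Expression Console and RMA were used. Versions and settings are not given in the sources used here. RMA sets the arrays to a common distribution, which removes global differences in RNA output and compresses dim signals. The log2 scale was inferred from the range, 3.09 to 14.47. Depth does not apply to arrays, and precision is limited by there being 4 arrays.

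Of 35556 probe sets, 21789 carried 1 gene symbol, 1621 several and 12146 none, and 21698 of the 21789 matched a RefSeq table of GRCm38.p6 by Entrez number. Probe sets of a gene were averaged. A gene entered a comparison when at least 1 array compared reached the floor of 7.617, the median of all genes, and was called at 2-fold. Differences between single arrays have no test. The additive model was fitted with limma 3.58.1 in R 4.3.3 (lmFit, eBayes with a trend), on 1 residual degree of freedom for each gene, to which the prior added 10.05, with a Benjamini-Hochberg threshold of 0.05. Its p-values rest on the departure from additivity, in which noise and a real difference between the responses are mixed.

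Members and gene lists were chosen with earlier results of these data known. Some listed genes are not reported here. Named genes were the members, the listed genes and the 5 genes nearest to Acod1, leaving out predicted genes, clones and small RNAs. Alternatives were a 1.5-fold threshold, a floor of 9.635 (the 75th percentile) or none, arrays centred by loess or quantile-normalised once more, the brightest probe set in place of the mean, and eBayes without the trend or robust. The limma fit and the 2-fold call were tested on simulated data. The noise there was of 1 size, taken from the M1 pair, and no IL-1α difference was simulated. Promoter windows came from a RefSeq table, and no coordinates are given for probe sets.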

Additional observations from a re-analysis of the deposited data

Results flagged for a closer look

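For 5 of the 8 cycle enzymes the IL-1α difference was above 0 in M2 and below 0 in M1, each from 1 array per group, and the difference was not tested. Over all genes, 69.3% of IL-1α differences were above 0 in M2 and 49.2% in M1. The share of genes with both signs was not counted. Under further quantile normalisation Cs was 0.02 in M1 and Ogdh -0.003 in M2, so neither kept opposite signs. The M2 minus M1 difference of responses was 0.057 for Cs, 0.088 for Ogdh, 0.20 for Sucla2, 0.22 for Fh1 and 0.22 for Mdh2, against a median of 0.06 over all genes. All 5 lay between the 5th and the 95th percentile over all genes, which were -0.23 and 0.36. Sucla2 also changed the sign of its phenotype difference, which was 0.02 with IL-1α and -0.18 with vehicle, a difference of 0.20 that was not tested.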

How the results depend on the processing

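No paired analysis was possible because each group holds 1 array and the labels give no replicate numbers. At a threshold of 1.5-fold, 5 members were called between M2 and M1 with vehicle, where 3 were at 2-fold. With the floor at the 75th percentile, limma called 4330 of 5801 genes for phenotype (6639 of 10625 with the median floor), fewer because fewer genes were tested. At that floor it called 1 gene for the common IL-1α effect, Malt1, named after its values were seen, where the median floor gave 0. Under the other alternatives the counts of members called stayed within 1.5 times. Acod1 ranged from -6.38 to -6.30 for M2 minus M1 with vehicle, and from 3.87 to 3.90 for IL-1α in M2, over the main values, loess, quantile normalisation and the brightest probe set. Over the same settings Idh1 ranged from 1.52 to 1.61 and Idh2 from 1.68 to 1.72 with vehicle. With IL-1α, loess lowered Idh1 to 1.39, Cs to 0.04 and Mdh2 to 0.09. The phenotype call for Got2 was lost without the trend. Signals under the floor limit what Acod1 in M2 with vehicle can show. The top of the scale may limit Acod1 in M1, which was not tested.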
